A study of Mus musculus with 12 samples.

Results

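The 10 genes described here are ones that endothelial cells use to sense blood flow, measured in the arteries of a partial ligation study in mice. They are the channel genes Piezo1, Trpv4 and Pkd2, the polycystin-1 gene Pkd1 and the junctional and growth factor receptor genes Pecam1, Kdr and Flt4. The others are the semaphorin receptor gene Plxnd1, the caveolar coat gene Cav1 and the sphingosine-1-phosphate receptor gene S1pr1. The members were taken as all probes annotated to the 10 listed genes among the 45281 probes of an Illumina mouse bead array. Of the 10 genes, 9 had a probe, with 19 probes in all, and Pkd2 had none in the annotation used. A filter on detection kept 16 of the 19 probes and 8 of the genes, against 21979 probes and 10596 genes of the whole array. The 8 tested genes are therefore not all members, since Kdr did not pass the filter.

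Male C57Bl6 mice, 9 weeks old per the labels, were injected with saline or with 5Aza (5-aza-2'-deoxycytidine, which blocks DNA methyltransferases) at 0.2 mg/kg/day into the peritoneum for 3 weeks. During the last 7 days all mice carried a partial ligation that closed 3 of 4 caudal branches on the left carotid, which gives low and oscillating flow there, while the right artery of the same operated mice was not ligated. The 4 groups were ligated left arteries after saline (saline LCA), right arteries after saline (saline RCA), ligated left arteries after 5Aza (5Aza LCA) and right arteries after 5Aza (5Aza RCA). Each group held 3 samples, and each sample was RNA washed out of the lumen of 3 pooled arteries, numbered here by its title. Since no unligated left artery entered the comparisons, ligation, surgery and body side cannot be told apart. The labels do not say whether pools of a group came from separate mice, so p-values measure only the spread between these pools. With 3 arrays a group, the number of arrays limits the precision of every value.

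As background, flowing blood drags on the endothelium, and the cells convert this shear stress into calcium entry, phosphorylation and gene expression. PIEZO1, TRPV4 and the polycystins encoded by Pkd1 and Pkd2 are membrane proteins linked to calcium entry, whereas PECAM1, VE-cadherin and the receptors VEGFR2 (Kdr) and VEGFR3 (Flt4) act together at cell junctions. PLXND1 can act as a direct force sensor beside its role as a semaphorin receptor, caveolae built from CAV1 buffer membrane tension and hold signalling proteins, and S1PR1 can signal under flow.

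The promoters of 2 members are shown because the values of their brightest probes under the methyltransferase inhibitor had opposite signs. In the ligated artery these were 0.82 for Trpv4 and -0.43 for Plxnd1, and neither passed (adjusted p = 0.145 and 0.252 in limma). The other 2 Trpv4 probes had negative values there, at -0.55 and -0.34. CpG dinucleotides, the substrate of DNA methyltransferases, are in capitals. Trpv4 lies on the minus strand of chromosome 5 and Plxnd1 on the minus strand of chromosome 6. Each sequence runs from 250 bases before to 50 bases after the RefSeq transcript start (GRCm38.p6), at chr5:114658372-114658671 and chr6:115994956-115995255, and is written 5′ to 3′ on the gene's strand.
Trpv4: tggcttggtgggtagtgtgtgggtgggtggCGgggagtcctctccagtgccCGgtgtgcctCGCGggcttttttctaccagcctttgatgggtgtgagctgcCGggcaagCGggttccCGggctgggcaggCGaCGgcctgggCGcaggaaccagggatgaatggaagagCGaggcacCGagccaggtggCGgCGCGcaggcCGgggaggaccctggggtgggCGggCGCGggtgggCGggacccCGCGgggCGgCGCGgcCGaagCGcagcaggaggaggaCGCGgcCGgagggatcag
Plxnd1: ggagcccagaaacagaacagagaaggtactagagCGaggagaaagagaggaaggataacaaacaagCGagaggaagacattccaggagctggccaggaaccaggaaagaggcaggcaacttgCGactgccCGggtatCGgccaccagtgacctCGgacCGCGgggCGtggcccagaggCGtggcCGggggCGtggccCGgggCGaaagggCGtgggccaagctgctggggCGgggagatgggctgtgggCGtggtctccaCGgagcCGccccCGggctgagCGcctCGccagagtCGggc
DNA methylation itself was not measured on these arrays.

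Both promoters were CpG-rich. The Trpv4 promoter held 30 CpG, more than 88.3% of the 32851 RefSeq promoters of 300 bases, and the Plxnd1 promoter held 23, more than 78.5% of them, against a median of 7. Of the 10 members, 8 had a promoter in the table used. The Piezo1 promoter held 34 CpG, that of Flt4 26, that of Kdr 19, that of Pkd1 18 and that of Pkd2 9, and the 2 listed for Cav1 held 13 and 16. The core of the binding sequence of the flow-induced KLF factors, CACCC, searched on both strands, was found 5 times in the Trpv4 promoter and 0 times in that of Plxnd1, and 57.5% of all promoters held it. The shear stress response element GAGACC, also searched on both strands, was found 0 times in the Trpv4 promoter and once each in those of Plxnd1, Piezo1 and Pkd1, and 16.4% of all promoters held it. Such matches describe the letters only.

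Between 21443 and 23251 probes were detected per array. All 20 endothelial marker genes other than the members were detected on 11 arrays and 19 of them on 5Aza LCA 1, so endothelial RNA was present in every sample. It was not the only RNA present: Acta2, a smooth muscle marker, and Col1a2, a fibroblast marker, were detected on all 12 arrays. Saline LCA 1 stood apart: its correlation over genes was 0.857 with saline LCA 2 and 0.856 with saline LCA 4, against 0.971 between that pair. Member values without it are given where a call turned on it. The fold changes of marker and partner genes are given only with it. The mean log2 level of the endothelial markers ran from 8.55 to 8.64 in saline LCA and from 8.86 to 9.06 in saline RCA, and from 8.47 to 8.72 in 5Aza LCA and from 8.85 to 8.98 in 5Aza RCA. The mean of 14 macrophage and monocyte genes was 6.81 on saline LCA 1 and 8.42 and 8.60 on saline LCA 2 and 4. It ran from 4.28 to 5.09 in saline RCA, where 1 to 6 of the 14 were detected, from 6.56 to 7.50 in 5Aza LCA and from 4.55 to 5.76 in 5Aza RCA. Among other lists, fibroblast markers ran from 8.15 to 8.65 in 5Aza LCA against 6.72 to 7.81 over the other groups, and smooth muscle markers from 6.13 to 6.44 in saline LCA against 5.54 to 5.98 in saline RCA. Neutrophil markers ran from 4.59 to 6.05 in saline LCA and from 4.24 to 4.29 in saline RCA, where 0 of 6 were detected, and erythroid and platelet markers from 5.10 to 6.66 and from 4.31 to 4.65. In the 5Aza LCA arrays the erythroid and platelet markers ran from 6.40 to 8.13, those of adipocytes from 5.18 to 6.52 and those of neutrophils from 4.24 to 4.90. In 5Aza RCA these lists ran from 4.47 to 6.39, 4.69 to 5.21 and 4.24 to 4.31. T cell, adipocyte and lymphatic markers ran from 4.56 to 5.15, 4.53 to 4.80 and 4.93 to 5.42 in saline LCA and from 4.47 to 4.67, 4.58 to 5.16 and 5.12 to 5.45 in saline RCA. The part of these other cell types in the members' values was not tested.

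**Figure D1:**
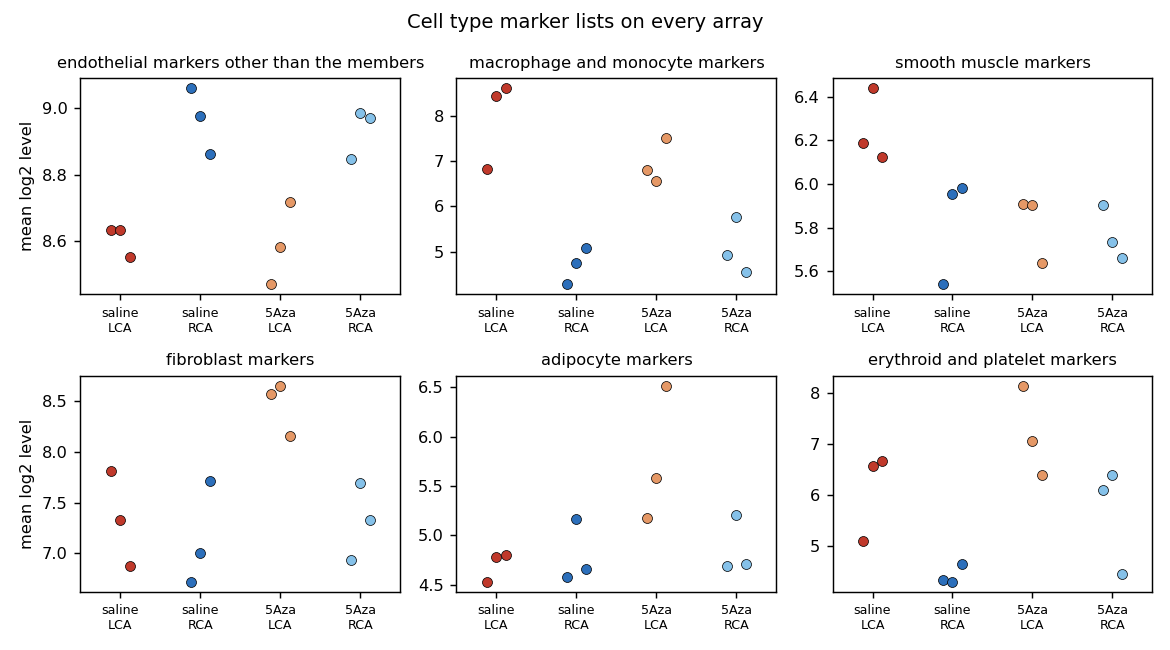
Mean log2 level of 6 lists of cell type markers on each of the 12 arrays, 1 panel per list with its own axis and the groups along the x axis. Macrophage and monocyte markers reach 8.42 and 8.60 on 2 saline LCA arrays and 6.81 on the remaining array, while endothelial markers stay between 8.47 and 9.06 on every array.

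The question of which flow sensors differ in expression under disturbed flow was examined in saline mice, as the ligated against the right artery. Trpv4 and S1pr1 fell in the ligated artery, by 1.13 and 0.98 on the log2 scale, and no member rose. These 2 of the 8 tested members passed adjusted p 0.05 in limma, against 11.5% of all genes tested in either direction and 6.24% lower. Pkd1, Pecam1 and Cav1 had negative values that did not pass, and Piezo1 and Plxnd1 had small positive values. The median of the 8 was -0.56, against -0.05 over all genes. Levels below are log2 of background-corrected, quantile-normalized intensity of each gene's brightest probe, and a level of 1 probe is not set against that of another.

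Among the channels, Trpv4, a calcium-permeable channel that contributes to flow-induced dilation, read 5.04, 4.76 and 4.80 on saline LCA 1, 2 and 4 and 5.97, 6.28 and 5.73 on saline RCA 1, 2 and 4. All 3 ligated arteries lay below all 3 right arteries. The group means were 4.87 ± 0.15 and 6.00 ± 0.28 (SD, n = 3 each), a 2.19-fold decrease (95% interval of the log2 fold change -1.72 to -0.54, adjusted p = 0.0256). The probe is dim: its unprocessed intensity was 94.4 to 103 in saline LCA and 117 to 159 in saline RCA, and its saline LCA levels lay just above the lowest level of any detected probe, which was 4.45 to 4.54 over the arrays. With an array left out, the call was lost for saline LCA 2 (adjusted p = 0.104), saline LCA 4 (0.1), saline RCA 1 (0.0706) or saline RCA 2 (0.0872), and the log2 fold change stayed between -1.26 and -0.97 with each array left out. The fold was smaller and not called with the authors' normalized table (log2 fold change -0.45, adjusted p = 0.0535) or without background correction (-0.40, adjusted p = 0.0586), and the call was also lost without the filter (adjusted p = 0.0538) or with only the compared groups (adjusted p = 0.0569). In pooled tissue RNA such a decrease cannot be told apart from a smaller share of the cells that express the gene.

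In saline mice the other Trpv4 probes did not show the same difference. Fitted on their own, the other 2 probes had log2 fold changes of -0.27 (adjusted p = 0.675) and -0.28 (adjusted p = 0.609), and the mean of all 3 probes gave -0.56 (adjusted p = 0.206). Both read higher on saline LCA 1 (5.84 and 5.55) than on saline LCA 2 (4.51 and 4.52) and 4 (4.88 and 4.81), a wider spread than that of the brightest probe on these arrays (4.76 to 5.04). All 3 probes are annotated to the same RefSeq transcript, and which part of it each reads was not analysed here.

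Piezo1, the gene of a stretch- and flow-gated cation channel, read 6.21, 6.98 and 7.07 on saline LCA 1, 2 and 4 and 6.67, 6.52 and 6.50 on saline RCA. The groups overlapped, with saline LCA 1 the lowest of the 6 arrays and the other pair the highest. The log2 fold change was 0.19 (95% interval -0.33 to 0.72, adjusted p = 0.633), and 0.46 (adjusted p = 0.102) without saline LCA 1. Its dimmer second probe went the other way: it read 5.60, 6.04 and 5.63 in saline LCA and 6.72, 6.44 and 6.14 in saline RCA, with a log2 fold change of -0.67 (adjusted p = 0.0681 in the fit of each probe). The 2 Piezo1 probes thus disagreed in sign.

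Pkd1, the gene of polycystin-1, a large membrane protein of cilia and cell contacts, read 6.20, 5.31 and 5.63 in saline LCA and 6.64, 6.41 and 6.32 in saline RCA. The groups did not overlap, and saline LCA 1 lay closest to the right arteries. The log2 fold change of -0.75 did not pass (SE 0.24, adjusted p = 0.0601), but it was -0.99 (adjusted p = 0.0043) without saline LCA 1. For Pkd2, the gene of the polycystin-2 channel, there is no value.

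Of the junctional genes, Pecam1, which encodes an adhesion molecule that passes force to its partners, read 10.83, 9.99 and 10.08 in saline LCA and 10.91, 10.87 and 10.92 in saline RCA. Saline LCA 1 lay almost at the level of the right arteries and the other 2 well below it. The log2 fold change was -0.60 (SE 0.22, adjusted p = 0.0934), and -0.87 (adjusted p = 0.00253) without saline LCA 1. A second Pecam1 probe read 9.02, 8.89 and 8.90 against 9.58, 9.64 and 9.52 and passed in the fit of each probe, at -0.65 (adjusted p = 0.0278), while its dimmest probe gave -1.18 with an adjusted p of 0.112. All 3 Pecam1 probes therefore had a negative value, and 1 of them passed. The mean of the 3 probes gave -0.81 and passed (adjusted p = 0.042).

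Kdr, the main VEGF receptor gene of endothelium, could hardly be measured. The brighter of its 2 probes was detected on 4 of the 12 arrays (saline LCA 2 and 4 and saline RCA 1 and 4) and the other on 1, so no group detected it on all 3 arrays. The brighter probe read 4.42, 4.95 and 4.98 in saline LCA, 4.65, 4.37 and 4.51 in saline RCA, 4.39, 4.25 and 4.45 in 5Aza LCA and 4.28, 4.35 and 4.35 in 5Aza RCA. In a fit with no filter, over 19057 genes, its log2 fold change in saline mice was 0.27 (SE 0.14, adjusted p = 0.336). Since the probe was at background on most arrays, its values bound a level and do not show that Kdr was not expressed.

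Flt4, the gene of VEGFR3, was dim as well. It read 5.20, 5.32 and 5.22 in saline LCA and 5.85, 5.37 and 5.30 in saline RCA, and the groups overlapped (log2 fold change -0.26, SE 0.26, adjusted p = 0.549). A second probe gave -0.15 (adjusted p = 0.795), and the remaining probe was detected on 0 arrays.

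Plxnd1 read 8.97, 8.94 and 9.36 in saline LCA and 8.85, 9.11 and 8.59 in saline RCA. The groups overlapped, with a log2 fold change of 0.24 (95% interval -0.17 to 0.65, adjusted p = 0.432), and its other 2 probes gave 0.04 and 0.42 (adjusted p = 0.951 and 0.574). Cav1, the structural protein of caveolae, read 10.60, 9.73 and 9.51 in saline LCA and 10.41, 10.34 and 10.62 in saline RCA. Saline LCA 1 sat among the right arteries and the other 2 ligated arteries lay below them. The Cav1 log2 fold change was -0.51 (SE 0.25, adjusted p = 0.194), and -0.84 (adjusted p = 0.00379) without saline LCA 1.

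S1pr1, at chr3:115710433-115715055 (GRCm38.p6), encodes a receptor for sphingosine-1-phosphate that steadies the endothelial barrier. It read 7.97, 7.37 and 7.06 in saline LCA and 8.26, 8.22 and 8.85 in saline RCA. All ligated arteries lay below all right arteries. The means were 7.47 ± 0.46 and 8.45 ± 0.35 (SD, n = 3 each), a 1.97-fold decrease (95% interval of the log2 fold change -1.52 to -0.43, adjusted p = 0.0313). With an array left out, the call was lost for saline LCA 2 (adjusted p = 0.122), saline LCA 4 (0.136), saline RCA 1 (0.0654), saline RCA 2 (0.0616) or saline RCA 4 (0.104), and the value ran from -1.23, without saline LCA 1, to -0.77. It was also lost without the filter (adjusted p = 0.0593) or with only the compared groups (adjusted p = 0.121). In 4 of the 8 tested members (Trpv4, Pkd1, Pecam1 and S1pr1) all ligated arteries were below all right arteries, as they were in 16.4% of all genes.

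Without saline LCA 1, 5 of the 8 members fell in the ligated artery of saline mice (Trpv4, S1pr1, Pkd1, Pecam1 and Cav1), while 3114 genes were called in place of 1221. Without saline LCA 2 the counts were 0 members and 179 genes. Other endothelial genes moved as well: of the 20 endothelial markers, 7 fell and 0 rose, with a median of -0.37. These included Icam2 at -1.58 (adjusted p = 0.00125) and Tek, the angiopoietin receptor, at -1.26 (adjusted p = 0.00625), while Cdh5, which encodes VE-cadherin, stood at 0.02 (adjusted p = 0.939). In saline mice the log2 fold changes of 6 of the 20 were positive, and none of these passed. In the average over treatments 7 of the 20 fell and 1 rose. The positive values that follow are those of saline mice. The VEGF receptor gene Flt1 stood at 1.15 (adjusted p = 0.247), Robo4 at 1.02 (adjusted p = 0.346), Emcn at 0.68 (adjusted p = 0.061) and Eng at 0.58 (adjusted p = 0.253).

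**Figure D2:**
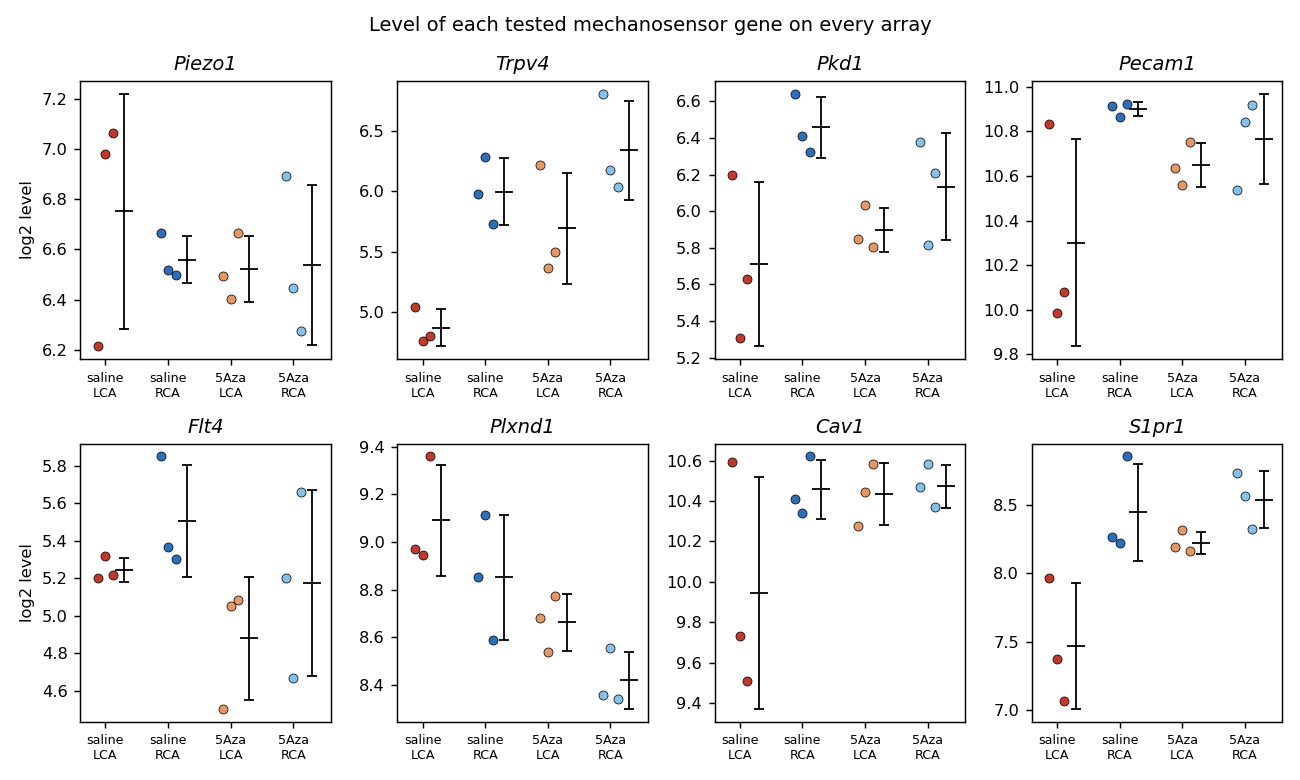
Log2 level of the brightest probe of each of the 8 tested genes on every array, 1 panel per gene with its own axis. Points are arrays, and the bar beside them is the group mean with its SD (n = 3). Trpv4 reads 4.76 to 5.04 in saline LCA and 5.73 to 6.28 in saline RCA, and on the Cav1, Pecam1 and Pkd1 panels saline LCA 1 is the highest saline LCA point.

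In mice given 5Aza, none of the 8 tested members passed between 5Aza LCA and 5Aza RCA, where 0.453% of all genes did and 1292 genes had an unadjusted p under 0.05. By brightest probe, Trpv4 had the lowest value. It read 6.22, 5.37 and 5.49 in 5Aza LCA 1, 2 and 4 and 6.81, 6.17 and 6.04 in 5Aza RCA 1, 3 and 4. The groups overlapped through 5Aza LCA 1 (log2 fold change -0.65, SE 0.27, adjusted p = 0.355). Fitted on their own, the other 2 Trpv4 probes gave -0.68 and -0.60 (adjusted p = 0.491 and 0.485). S1pr1 read 8.19, 8.31 and 8.16 against 8.73, 8.56 and 8.32, without overlap, as in 12.2% of all genes with the ligated group lower. Its log2 fold change was -0.31 (95% interval -0.86 to 0.23, adjusted p = 0.642). The other 6 members had log2 fold changes from -0.30 (Flt4) to 0.24 (Plxnd1), with Piezo1 and Cav1 at -0.02 and -0.04. The second Piezo1 probe, fitted on its own, stood lower, at -0.91 (SE 0.21, adjusted p = 0.117).

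Averaged over both treatments, the same pair of members passed, against 12.9% of all genes in either direction and 6.81% lower. Trpv4 fell by 0.89 (SE 0.19, adjusted p = 0.0148), a call that held with each of the 12 arrays left out in turn (adjusted p from 0.00565 to 0.0419). With the mean of its 3 probes the value was -0.60 (adjusted p = 0.0634). Its other 2 probes, fitted on their own, gave -0.48 and -0.44 (adjusted p = 0.247 and 0.217). S1pr1 fell by 0.65 (SE 0.18, adjusted p = 0.0355), and this call held in only 2 of the 12 fits with an array left out, with adjusted p-values from 0.003 to 0.0871, and was lost without the filter (adjusted p = 0.0626). Without saline LCA 1, Pkd1 (-0.61, adjusted p = 0.00696), Pecam1 (-0.49, adjusted p = 0.00678) and Cav1 (-0.44, adjusted p = 0.0147) passed too.

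**Figure D3:**
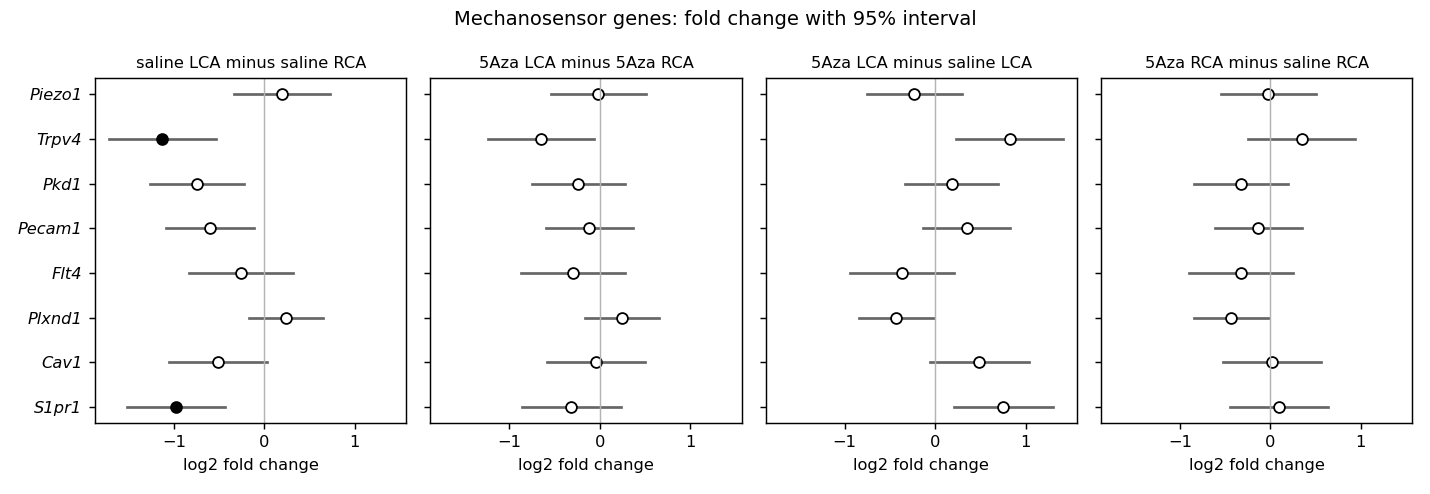
Log2 fold change of the 8 tested genes with its 95% interval in 4 comparisons, 1 panel each. Filled points passed adjusted p 0.05: Trpv4 at -1.13 and S1pr1 at -0.98, in saline LCA minus saline RCA only.

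The effect of 5Aza was addressed within each artery. In the ligated artery, none of the 8 members passed, against 0.462% of all genes, with 1971 genes at an unadjusted p under 0.05. This comparison shares its saline LCA samples with the comparison of flow under saline, so that a low saline LCA level enters both with opposite sign. Trpv4 was higher in all 3 ligated arteries after 5Aza than in all 3 after saline (0.82, SE 0.27, adjusted p = 0.145), as was S1pr1 (0.75, SE 0.25, adjusted p = 0.147). In 10.3% of all genes the 5Aza arrays were all higher, and in 8.02% all lower. The latter was the pattern of Flt4, which read 4.50, 5.05 and 5.09 in 5Aza LCA (-0.37, SE 0.26, adjusted p = 0.476), and of Plxnd1, which read 8.68, 8.54 and 8.77 (-0.43, SE 0.19, adjusted p = 0.252). Pkd1 read 5.85, 6.03 and 5.80, Pecam1 10.64, 10.56 and 10.75, Cav1 10.28, 10.44 and 10.58 and Piezo1 6.50, 6.40 and 6.67, all overlapping saline LCA, with log2 fold changes of 0.18, 0.35, 0.49 and -0.23. The median of the 8 was 0.27, against 0.04 over all genes.

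Saline LCA 1 again decided which members passed. Without it, Cav1 (0.82, adjusted p = 0.00745), S1pr1 (1.01, adjusted p = 0.00972) and Pecam1 (0.62, adjusted p = 0.0236) were higher after 5Aza in the ligated artery, Trpv4 stood at 0.90 (adjusted p = 0.0569), and 2056 genes were called in place of 49. For Trpv4 the sign also depended on the probe: its other 2 probes had log2 fold changes of -0.55 and -0.34 (adjusted p = 0.461 and 0.619).

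In the right artery, where 0% of all genes passed in limma and 604 had an unadjusted p under 0.05, no member passed. Plxnd1 read 8.36, 8.56 and 8.34 in 5Aza RCA against 8.85, 9.11 and 8.59 in saline RCA, all lower, as in 6.17% of all genes. Its log2 fold change was -0.43 (95% interval -0.84 to -0.02, unadjusted p = 0.0415, adjusted p = 0.872), close to its value of -0.43 in the ligated artery (unadjusted p = 0.0434). The other 2 Plxnd1 probes were also negative in both arteries, at -0.57 and -0.76 in the ligated and -0.47 and -0.18 in the right artery, and none passed. The remaining members ran from -0.33 (Flt4) to 0.35 (Trpv4), with Pkd1 at -0.32 and Pecam1 at -0.13, and their groups overlapped. The levels in 5Aza RCA 1, 3 and 4 were 6.38, 5.81 and 6.21 for Pkd1 and 10.54, 10.84 and 10.92 for Pecam1. They were 6.89, 6.45 and 6.27 for Piezo1, 5.20, 4.67 and 5.66 for Flt4 and 10.47, 10.58 and 10.37 for Cav1.

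Whether 5Aza altered the difference between arteries was tested as an interaction. It passed for 0% of all genes in limma, with 1009 at an unadjusted p under 0.05, and for none of the members. The largest value was that of S1pr1, at 0.66 (95% interval -0.11 to 1.43, unadjusted p = 0.0859, adjusted p = 0.557), followed by Pkd1 at 0.51, Pecam1 and Trpv4 at 0.48 and Cav1 at 0.47. A difference between treatments in the flow effect on Trpv4 or S1pr1 was thus not shown, although each passed after saline and not after 5Aza. Without saline LCA 1 the interaction passed for 1021 genes and for 0 members, with Cav1 at 0.80 (adjusted p = 0.0522) and Pecam1 at 0.75 (adjusted p = 0.0567).

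The order of the 4 group means differed between members. Trpv4 was lowest in saline LCA (4.87), followed by 5Aza LCA (5.69 ± 0.46), saline RCA (6.00) and 5Aza RCA (6.34 ± 0.41), and each neighbouring pair from 5Aza LCA upward lay within their SDs. S1pr1 had the same order, from 7.47 through 8.22 ± 0.08 and 8.45 to 8.54 ± 0.21, and here too the neighbours from 5Aza LCA upward lay within their SDs. Plxnd1 had another order, with both saline groups above both 5Aza groups. It ran from 9.09 ± 0.23 in saline LCA through 8.85 ± 0.26 in saline RCA and 8.66 ± 0.12 in 5Aza LCA to 8.42 ± 0.12 in 5Aza RCA. For Cav1, 3 group means lay together at 10.43 to 10.47 and saline LCA stood at 9.95 with an SD of 0.57, the widest of its groups.

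Fitted probe by probe, 4 of the 16 kept member probes passed in the average over both treatments, all lower in the ligated artery, against 4.98% of all kept probes. They were the brightest probe of Trpv4, the S1pr1 probe, the second Pecam1 probe (-0.38, adjusted p = 0.0442) and the second Piezo1 probe (-0.79, SE 0.15, adjusted p = 0.0101). In saline mice alone 3 passed, those of Trpv4, S1pr1 and Pecam1, against 4.2% of probes. The second Piezo1 probe read 4.85, 4.63 and 5.14 in 5Aza LCA and 5.96, 5.69 and 5.70 in 5Aza RCA, below the right arteries in both treatments, whereas the brighter Piezo1 probe stood at 0.09 in the average (adjusted p = 0.78). After 5Aza the second Piezo1 probe stood at -0.88 in the ligated artery (adjusted p = 0.099) and at -0.65 in the right artery (adjusted p = 0.632). For Piezo1 the direction therefore depended on the probe, and both are annotated to the same RefSeq transcript.

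**Figure D4:**
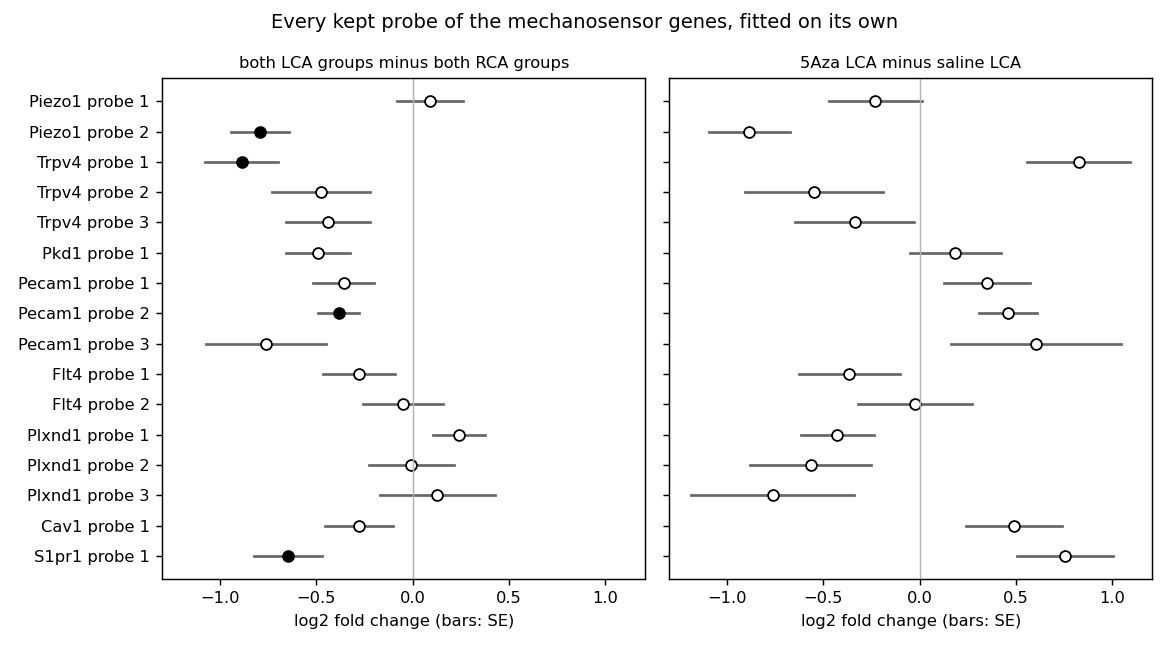
Log2 fold change with its SE of each of the 16 kept probes, fitted on its own, for both ligated minus both right groups and for 5Aza LCA minus saline LCA. Filled points passed adjusted p 0.05, at -0.79 for Piezo1 probe 2, -0.89 for Trpv4 probe 1, -0.38 for Pecam1 probe 2 and -0.65 for S1pr1, and probes of 1 gene have both signs for Piezo1 and Plxnd1 in the first panel and for Trpv4 in the other.

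The partners of these sensors were examined as lists, in saline LCA against saline RCA, where 5.29% of all genes rose and 6.24% fell. Downstream of the sensors, 3 of 12 flow-responsive genes fell and 1 rose. Klf2 and Klf4, transcription factors that laminar flow induces, fell by 1.91 (adjusted p = 0.0134) and by 1.76 (adjusted p = 0.00691), and Nos3, the endothelial nitric oxide synthase, fell by 1.89 (adjusted p = 0.0149). Edn1, the gene of the vasoconstrictor endothelin-1, rose by 1.13 (adjusted p = 0.0313). After 5Aza 1 of the 12 fell and 2 rose, among them Klf2 at -2.37 (adjusted p = 0.0229) and Edn1 at 1.64 (adjusted p = 0.042). In the average over treatments 4 fell and 2 rose.

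Around S1pr1, 2 of 8 genes of sphingosine-1-phosphate handling rose and 1 fell. The exporter gene Spns2 rose by 1.28 (adjusted p = 0.0314) and the lyase gene Sgpl1 by 1.25 (adjusted p = 0.0199), while Plpp3, a lipid phosphatase, fell by 1.33 (adjusted p = 0.0235). In 5Aza mice Sphk2, a kinase that makes the lipid, rose in the ligated artery by 1.26 (adjusted p = 0.0424). The median of these 8 was 0.65, against -0.98 for S1pr1 itself.

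Among the 12 other mechanosensitive channels only Trpc1, a cation channel gene detected on 2 of the 3 saline LCA arrays, passed, at -1.32 (SE 0.36, adjusted p = 0.0376). Of 5 genes of the cilium, which holds polycystins, Ift172 fell by 1.31 (adjusted p = 0.0383). Of 6 caveolar genes, Cavin1, a coat protein that acts with CAV1, fell by 0.84 (adjusted p = 0.0448), 5 of 6 values were negative, and Cavin2 passed in the average over treatments (-0.48, adjusted p = 0.0246). Of 7 G protein and receptor genes, Calcrl, the adrenomedullin receptor component, fell by 1.88 (adjusted p = 0.00581) and Gna13, a G protein subunit gene, rose by 1.00 (adjusted p = 0.0216). The adhesion receptor gene Adgrg1 passed in the average only (-1.40, adjusted p = 0.0336).

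At the junction, 1 of 11 genes passed, Pik3ca, a catalytic subunit of phosphoinositide 3-kinase, which rose by 0.85 (adjusted p = 0.0261). Of 10 integrin and focal adhesion genes, Itgb3 was at least 1.38-fold higher (adjusted p = 0.0236), since no saline RCA array detected it. The bound compares its saline LCA mean with the lowest level of detected probes on the saline RCA arrays. Of 7 VEGF genes none passed in saline mice, where Vegfd stood at -0.73 (adjusted p = 0.13) and Nrp2 at 0.48 (adjusted p = 0.145), and Vegfd passed in the average (-0.75, adjusted p = 0.0407). Of 7 semaphorin and plexin genes, Sema3f, a secreted semaphorin, fell by 0.86 (adjusted p = 0.019). Of 9 glycocalyx genes, Sdc2, a heparan sulphate proteoglycan, fell by 1.68 (adjusted p = 0.0033), and it was higher after 5Aza in the ligated artery by 1.44 (SE 0.24, adjusted p = 0.0322), the only gene of these lists to pass there.

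The genes whose pattern over the 12 arrays was most like that of the 3 members with the widest range of group means were found by the root mean square difference of log2 levels, each gene centred on its own mean. For Trpv4 they were Abcb9 (0.21), Mtrf1l (0.22) and Cwf19l2 (0.24), against a median of 0.68 over all genes. For S1pr1 they were Tbce (0.13), F2r, the gene of a thrombin receptor (0.16), and Phldb2 (0.16), against a median of 0.57. For Pkd1 they were Foxj3 (0.15), Ube2d2a (0.16) and Ak3 (0.16), against a median of 0.49. Genes picked as nearest lie below such a median by selection. About its own mean, the root mean square of Trpv4 was 0.61, that of S1pr1 0.49 and that of Pkd1 0.36.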

How the data were processed

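Each sample has an unprocessed intensity and a detection p-value per probe in the deposited table, per the file headers. These were exported with GenomeStudio 2010.3 per the submitters' processing notes. A deposited table of normalized intensity, quantile-normalized as judged from its columns, served as an alternative. The design text names 2 microarrays, but which sample was on which is not given in the sources used here.

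Background was corrected with limma's neqc (offset 16, with control probe statistics taken from the p-values of detection), followed by quantile normalization and log2 of the deposited intensity. Probes detected at p under 0.05 on all 3 arrays of at least 1 group were kept, and the brightest probe stood for each gene. A single gene symbol was given for 34885 of 45281 probes, several for 18 and none for 10378. For 10596 genes a linear model of the 12 samples had a mean for each group (limma 3.58.1, R 4.3.3), and 6 contrasts were tested, two-sided, with Benjamini-Hochberg adjustment over all genes. The SE and 95% interval are those of the moderated test, and a separate fit used every kept probe. A group detected on no array is given as a bound. The model shares 1 spread between groups, although the root mean variance was 0.512 in saline LCA and 0.333 to 0.373 in the others.

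The members, lists and tests were chosen with earlier results of these data known. The text names every member. Of each partner list it names up to 3 genes past the threshold, by smallest adjusted p in saline mice or the average over treatments. Otherwise it names up to 2 by smallest p. More genes than this are named for the flow-responsive, sphingosine-1-phosphate and VEGF lists. For the 3 members of widest range it names the 3 nearest genes. The code was tested on simulated data. Pkd2 was not analysed here beyond its promoter.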

Additional observations from a re-analysis of the deposited data

How the results depend on the processing

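The number of members called in saline LCA against saline RCA (2) became 1 with the authors' normalized table, without background correction or with the replicate block, 0 without the filter or with only the compared groups, and 5 with array weights, which gave saline LCA 1 a weight of 0.186. With 1 array left out it was 0 to 5. With the mean of probes it stayed at 2, but Pecam1 (-0.81, adjusted p = 0.042) passed in place of Trpv4 (-0.56, adjusted p = 0.206). Genes called (1221) numbered 616 without the filter, 702 with the replicate block, 129 with only the compared groups, 3743 with array weights and 179 to 3114 with 1 array left out. In the average over treatments the members called (2) were 1 without the filter, with the mean of probes or with the replicate block, 4 with every probe, 5 with array weights and 1 to 5 with 1 array left out, and genes called (1364) were 897 without the filter, 536 with the replicate block, 3395 with array weights and 577 to 3162.

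In 5Aza LCA against 5Aza RCA, 48 genes became 29 with every probe, 13 with the replicate block, 156 with array weights and 4 to 290 with 1 array left out, and the count of members stayed at 0. In 5Aza LCA against saline LCA, 49 genes became 20 without the filter, 0 with the replicate block or only the compared groups, 2254 with array weights and 0 to 2056 with 1 array left out, and 0 members became 4 with array weights and 0 to 3. In the right artery 0 genes became 0 to 1 with 1 array left out. For the interaction, 0 genes became 1 without the filter, 847 with array weights and 0 to 1021.

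The Trpv4 call in saline mice was lost with the authors' table (-0.45, adjusted p = 0.0535), without background correction (-0.40, adjusted p = 0.0586), without the filter (adjusted p = 0.0538), with the mean of probes (adjusted p = 0.206) and with only the compared groups (adjusted p = 0.0569). That of S1pr1 was lost without the filter (adjusted p = 0.0593; 0.0626 in the average), with the replicate block (-0.98, adjusted p = 0.0662; -0.62, adjusted p = 0.114 in the average) and with only the compared groups (adjusted p = 0.121). More genes are tested without the filter, and fewer samples enter with only the compared groups. The other causes were not tested.

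Signs that turned were small, apart from the mean of probes. With it, Piezo1 stood at -0.24 in saline mice and -0.35 in the average, Trpv4 at -0.020 for 5Aza in the ligated artery and -0.084 for the interaction, and the interaction at 0.081 for Flt4 and -0.23 for Plxnd1. Cyclic loess gave Piezo1 0.0043 and Cav1 0.027 in 5Aza mice and Plxnd1 -0.033 for the interaction. Array weights gave Piezo1 0.009 in 5Aza mice, and Flt4 0.027 and Plxnd1 -0.089 for the interaction. The replicate block gave Cav1 0.067 in 5Aza mice and, for 5Aza in the right artery, Piezo1 0.035 and Cav1 -0.091. The Plxnd1 interaction was -0.0038 with the authors' table and -0.0052 without background correction. With 1 array left out, values crossed 0 in 5Aza mice for Piezo1 (-0.15 to 0.16) and Cav1 (-0.11 to 0.040), for 5Aza in the ligated artery for Pkd1 (-0.017 to 0.43), for 5Aza in the right artery for Piezo1 (-0.20 to 0.11), Cav1 (-0.04 to 0.10) and S1pr1 (-0.019 to 0.30), and for the interaction for Flt4 (-0.29 to 0.21) and Plxnd1 (-0.13 to 0.14).

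Same-numbered left and right arteries had low correlations of deviations (0.056, 0.047 and 0.033 after saline, 0.018 and -0.028 after 5Aza). Differently numbered left and right arteries ran from -0.067 to 0.023 after saline and from -0.028 to 0.048 after 5Aza. The same-numbered pairs thus lay above the others after saline but not after 5Aza. These values do not decide whether equal numbers mark the same mice, and the labels do not say so. The block was therefore no main result. The sample numbers are those of the titles. The descriptions number some samples differently, which leaves the saline pairs as they are and would add a pair of 5Aza LCA 2 with 5Aza RCA 3 (-0.028). Kdr, Flt4 and Trpv4 lay near background, which limits their values.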
